A study of Mus musculus with 6 samples.

Results

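The genes described here encode the proteins of the large (60S) subunit of the cytosolic ribosome, as measured by RNA sequencing in mouse thymocytes that lack or carry Rpl22l1. The 44 genes were taken by symbol from the gene table of the series, which lists 34573 genes. They are genes of large-subunit proteins, chosen without Rpl22 and without the -like paralogs. All 44 were found in the table, and all 44 passed the filter on low counts, with 5088 to 76764 reads per gene and library.

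The cells were double negative 3 (DN3) thymocytes, sorted as CD4-CD8-CD44-CD25+, from the adult thymus of mice aged 6 to 8 weeks on a mixture of the C57BL/6 and 129 strains. The 3 WT libraries came from Cre-negative Rpl22l1 f/f mice and the 3 KO libraries from Cre+ Rpl22l1 f/f mice, so both groups carry the floxed allele, and an effect of Cre itself cannot be told apart from that of the deletion. The Cre is Vav-Cre, which is active in blood-forming cells generally, so the gene is also deleted in stages before DN3. The series text assigns Vav-Cre to the opposite genotype, and the sample labels were followed. The labels do not say if each library is a mouse of its own, so the tests see only the spread among these libraries, which may be technical.

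Rpl22l1 itself had 86.3, 123 and 118 CPM (reads scaled to the size of the library) in WT 1 to 3 and 18.6, 19.996 and 26.1 CPM in KO 1 to 3, and each library thus matched its label. By edgeR's quasi-likelihood test its log2 fold change was −2.35 ± 0.18 (SE; adjusted p 0.00116). Reads counted to genes numbered 13887672 to 28128186 per library. The 8 DN3 markers summed to 7617 to 8341 CPM in WT and 7276 to 7748 CPM in KO. Of these 8, edgeR passed 0 on groups alone (5 at an unadjusted p below 0.05), and with the block Il2ra rose and Rag1 and Notch3 fell, with log2 fold changes of 0.30, −0.36 and −0.32. Those of Rag2 and Dntt were −0.39 and −0.25, and all 5 were larger in size than any among the 44 genes. The 4 B lineage markers stayed at or under 0.762 CPM in sum, with Ms4a1 and Pax5 at 0. The genes that the sort excludes, Cd4, Cd8a, Cd8b1 and Cd44, summed to at most 8.14 CPM in WT and 11.05 CPM in KO. The epithelial and stromal list summed to 102 to 123 CPM in WT and 116 to 137 CPM in KO, made up of Epcam, which was lower in KO, and Pdgfrb, which was higher, with Foxn1 near 0. The myeloid list summed to 24.1 to 29.5 CPM in WT and 24.6 to 31.1 CPM in KO, and the dendritic, erythroid and innate lymphoid lists each stayed at or under 12.1 CPM. The part of these markers in the results was not tested.

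The large subunit carries the peptidyl transferase centre, which joins amino acids, the tunnel through which the growing chain leaves, and the stalk that recruits elongation factors. Its proteins are made in near equal numbers and imported into the nucleolus, where they join the precursor rRNAs with the help of assembly factors before export. Most messages of these genes start with a C followed by a run of pyrimidines, the 5′ terminal oligopyrimidine (TOP) tract, through which growth signals control their translation. DN3 thymocytes that assemble a pre-T cell receptor go on to divide rapidly, which takes many new ribosomes, and Rpl22 and its paralog Rpl22l1 are known for roles in early T cell development.

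None of the 44 large-subunit genes was called higher or lower in KO at an adjusted p of 0.05 in the comparison of groups alone, but nearly all had a slightly positive fold change. The log2 fold change was positive for 41 and negative for 3 genes (Rpl10a, Rpl30 and Rpl37a, of which Rpl10a turned positive, at 0.004, with DESeq2 size factors), ranging from −0.02 to 0.23 with a median of 0.12, while the median over all 13729 tested genes was −0.01. Of all tested genes, 48.8% had a positive fold change. The counts of the 44 rest partly on WT 1. Without that library 29 of them were positive and 15 negative, against 51% positive of all tested genes. Leaving out KO 1 as well gave 40 positive and 4 negative, against 49.5% positive of all tested genes. When libraries of the same number were compared with each other, 12 genes rose and 0 fell, by 0.16 to 0.23 on the log2 scale. These 12 are Rpl4, Rpl7a, Rpl10, Rpl14, Rpl23, Rpl23a, Rpl24, Rpl27, Rpl29, Rpl35a, Rpl36a and Rplp1. The pairing of the numbers was taken from the data, and no litter, batch or day behind it is stated.

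The test behind these calls was edgeR's quasi-likelihood F test over all 13729 genes with Benjamini-Hochberg adjustment. In the comparison of groups alone it called 4.56% of all tested genes, 2.08% higher and 2.48% lower in KO, and the smallest adjusted p among the 44 was 0.121. An unadjusted p under 0.05 was reached by 2 of the 44, Rplp1 and Rpl4, both higher in KO, against 11.3% of all tested genes higher and 23.5% in either direction. DESeq2 called the same 2 genes (background 4.46% higher and 8.91% in either direction), and limma-voom called 0. With the replicate number as a block, the test called 9.51% of all tested genes higher and 10% lower, beside the 12 and 0 of the 44. DESeq2 with that block called 13, the same 12 and Rpl27a (background 6.94% higher).

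Counts that need no model were made beside the tests. In 34 of the 44 genes, the KO library was above the WT library for all 3 numbers, which held for 26.5% of all tested genes. Every KO library lay above every WT library for 5 of the 44, Rpl4, Rpl7a, Rpl29, Rpl34 and Rplp1, against 13.8% of all tested genes, and below for 0 of the 44, against 14.7%, which makes 28.4% of all tested genes without overlap in either direction. The share of the 44 was thus above the background for same-number differences, close to it for genes higher in KO without overlap, and under it for genes without overlap in either direction.

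**Figure D1:**
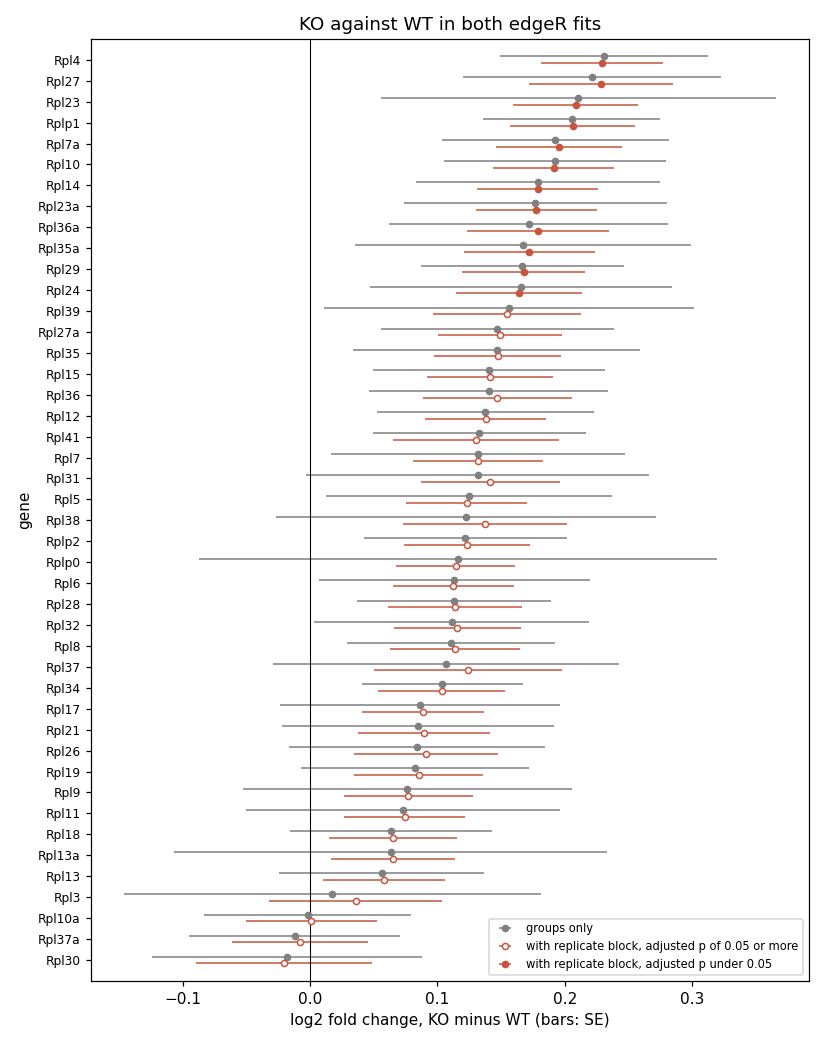
Log2 fold change of KO against WT (horizontal axis, bars are SE) for each of the 44 genes, from the fit on groups alone (grey) and the fit with the replicate number as a block (red, filled where the adjusted p is under 0.05). The estimates nearly coincide, 41 of the grey points lie above 0 (Rpl10a, below 0 here, turns to 0.004 with DESeq2 size factors), and the error bars of the block fit are shorter.

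Summed over the 44 genes, the level was 33613, 41512 and 40548 CPM in WT 1 to 3 and 37774, 44795 and 43371 CPM in KO 1 to 3. The KO mean was 41980 ± 3712 and the WT mean 38558 ± 4309 CPM (SD, n = 3), a ratio of 1.09. The ranges of the groups overlapped, since KO 1 lay under WT 2 and WT 3. The genes made up 3.43% to 4.18% of the reads counted to genes in WT and 3.78% to 4.39% in KO. In bulk libraries like these, more cells with a high level and more RNA per cell cannot be told apart. The sum over the 44 divided by the sum over 32 small-subunit genes was 1.27, 1.33 and 1.30 in WT and 1.28, 1.33 and 1.30 in KO, in which the groups again overlapped.

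At the stalk, which binds the elongation factors, 1 of the 4 listed genes, Rplp1, had groups that did not overlap. Of all tested genes, 13.8% were higher in KO without overlap and 28.4% did not overlap in either direction, so no excess can be read from it. Whether the fold change of Rplp1 differs from those of its partners was not tested. Rplp1, one of the acidic proteins at the stalk's tip, had 991, 1062 and 1083 CPM in WT 1 to 3 and 1188, 1226 and 1202 CPM in KO 1 to 3. The gene (ENSMUSG00000007892) lies on the minus strand of GRCm38 at chr9:61913284-61914542. All KO libraries were high and close to each other, and the groups did not overlap. Its log2 fold change was 0.21 ± 0.07 (SE). The adjusted p was 0.121 on groups alone in edgeR, 0.0163 with the block and 0.0236 in DESeq2. Rplp2, the other acidic protein, had 619, 712 and 702 CPM in WT 1 to 3 and 698, 776 and 738 CPM in KO 1 to 3, so that KO 1 fell among the WT libraries. Its log2 fold change was 0.12 ± 0.08, with an adjusted p of 0.387 on groups alone and 0.108 with the block in edgeR. Rpl12, at the base of the stalk, had a log2 fold change of 0.14 ± 0.09 and adjusted p-values of 0.362 and 0.0664 in the same fits. Rplp0, the scaffold that holds the acidic proteins, had 1709, 2505 and 2519 CPM in WT 1 to 3 and 1836, 2786 and 2676 CPM in KO 1 to 3. Rplp0 (ENSMUSG00000067274) lies on the plus strand at chr5:115559467-115563727. Both number 1 libraries were far below the others, and the log2 fold change of 0.12 ± 0.20 was smaller than its error.

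Around the polypeptide exit tunnel, 8 of the 44 genes were listed (Rpl4, Rpl17, Rpl19, Rpl23a, Rpl26, Rpl31, Rpl35 and Rpl39). Their median fold change was 0.14, and all 8 were positive, as were 41 of the 44 and 48.8% of all tested genes. Rpl4 and Rpl23a, 2 of the 8, rose with the block, against 9.51% of all tested genes. Rpl4, whose long loop lines the tunnel's narrow part, had 1896, 2033 and 2016 CPM in WT 1 to 3 and 2166, 2479 and 2331 CPM in KO 1 to 3. Every KO library was higher than every WT library. The gene (ENSMUSG00000032399) lies on the plus strand at chr9:64173375-64178666 and has 10 exons in its principal transcript. With 0.23 ± 0.08, its log2 fold change was the highest of the 44 on all libraries. Several others lay within 1 SE of it, among them Rpl27, Rpl23, Rplp1, Rpl7a and Rpl10. Other genes were highest without WT 2, WT 3, KO 1 or KO 2. The adjusted p-values of Rpl4 were 0.132 on groups alone and 0.00916 with the block in edgeR and 0.0282 in DESeq2. Rpl23a, at the tunnel's exit, where the signal recognition particle docks, had 862, 1052 and 1025 CPM in WT 1 to 3 and 985, 1188 and 1150 CPM in KO 1 to 3. KO 1 lay below WT 2 and WT 3, but each KO library was above the WT library of its number. The log2 fold change of Rpl23a was 0.18 ± 0.10, with adjusted p-values of 0.334 and, with the block, 0.0259. Tlcd1 overlaps Rpl23a on the opposite strand, and as the strand setting of the counting is not given, reads of the 2 genes cannot be told apart.

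Near the catalytic centre and the face that meets the small subunit, Rpl10, Rpl23 and Rpl24 rose with the block, while Rpl3 did not pass in either fit. They were named for their values and not taken from a list of that region, so no share of it can be read from them. With the block, 9.51% of all tested genes rose. Rpl10, which joins the subunit late and completes the catalytic centre, had 916, 1034 and 1025 CPM in WT 1 to 3 and 1027, 1192 and 1181 CPM in KO 1 to 3. KO 1 was level with WT 2 and WT 3, and KO 2 and KO 3 were higher than all WT libraries. Its log2 fold change was 0.19 ± 0.09 (adjusted p 0.222 on groups alone and 0.0198 with the block in edgeR). Rpl23, which with Rpl24 forms part of the binding site of the anti-association factor eIF6, had 745, 1017 and 971 CPM in WT 1 to 3 and 856, 1219 and 1087 CPM in KO 1 to 3. The number 1 library was the lowest of each group, and the groups overlapped. The estimate was 0.21 ± 0.16 (SE) on the log2 scale on groups alone and 0.21 ± 0.05 with the block, with adjusted p-values of 0.447 and 0.0155. Rpl24 had a log2 fold change of 0.17 ± 0.12, with adjusted p-values of 0.431 and 0.041. Rpl3, which reaches towards the catalytic centre, had 1117, 1648 and 1698 CPM in WT 1 to 3 and 1317, 1656 and 1544 CPM in KO 1 to 3. WT 1 was the lowest library, KO 1 the next, and the remaining 4 were mixed between the groups, with a log2 fold change of 0.02 ± 0.16 that turned to −0.01 when libraries were scaled by size alone.

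The 2 partners of 5S rRNA did not pass in either fit. Rpl5 and Rpl11 form the 5S ribonucleoprotein with 5S rRNA, which is also known to bind Mdm2 and so to raise p53 when ribosome assembly is disturbed. Rpl5 had 1128, 1374 and 1339 CPM in WT 1 to 3 and 1203, 1522 and 1463 CPM in KO 1 to 3. Rpl11 had 835, 1086 and 1038 CPM in WT 1 to 3 and 889, 1131 and 1092 CPM in KO 1 to 3. In both genes KO 1 was below WT 2 and WT 3. The log2 fold changes were 0.12 ± 0.11 for Rpl5 and 0.07 ± 0.12 for Rpl11, with adjusted p-values with the block of 0.0954 and 0.298 in edgeR's quasi-likelihood test. The 10 genes listed for their mutation in Diamond-Blackfan anaemia, a human failure of red cell production, had a median fold change of 0.13. All 10 were positive, as were 41 of the 44 and 48.8% of all tested genes. Rpl27 and Rpl35a, 2 of the 10, rose with the block, against 9.51% of all tested genes.

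Among the other genes that rose with the block, Rpl7a had 935, 1112 and 1098 CPM in WT 1 to 3 and 1124, 1260 and 1211 CPM in KO 1 to 3. Rpl29 had 551, 628 and 626 CPM in WT 1 to 3 and 631, 699.6 and 695 CPM in KO 1 to 3. In both genes the lowest KO library stood just above the highest WT library. Their log2 fold changes were 0.19 ± 0.09 and 0.17 ± 0.08, with block-adjusted p-values of 0.0215 and 0.0351 in edgeR. Rpl27 had 423, 546 and 446 CPM in WT 1 to 3 and 520, 585 and 546 CPM in KO 1 to 3, in which WT 2 reached into the KO range, with a log2 fold change of 0.22 ± 0.10 and a block-adjusted p of 0.0191. Rpl14 had 712, 843 and 820 CPM in WT 1 to 3 and 800.5, 957 and 932 CPM in KO 1 to 3, with a block-adjusted p of 0.0259. Rpl35a and Rpl36a had log2 fold changes of 0.17 ± 0.13 and 0.17 ± 0.11, with block-adjusted p-values of 0.0401 and 0.0465. The groups overlapped in 8 of the 12 genes called with the block, and all 12 were higher in KO for each of the 3 numbers. As the 12 were picked by the fit with these numbers, their agreement across numbers follows largely from that choice and is a description. Rpl27a missed the threshold in edgeR with the block, at an adjusted p of 0.0541.

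The 3 genes with a negative fold change lay close to 0. Rpl30, whose yeast counterpart restrains the splicing of its own transcript, had 524, 636 and 595 CPM in WT 1 to 3 and 577, 649 and 507 CPM in KO 1 to 3, with KO 3 the lowest of the 6 libraries. The fold change of Rpl30 was −0.02 ± 0.11 on the log2 scale. Rpl37a had 390, 463 and 462 CPM in WT 1 to 3 and 415, 448 and 442 CPM in KO 1 to 3, and Rpl10a had 802, 943 and 922 CPM in WT 1 to 3 and 856, 918 and 889 CPM in KO 1 to 3. In both, WT 1 was the lowest library and KO 1 the next, and the log2 fold changes, −0.01 ± 0.08 and −0.002 ± 0.081, were far below their errors, that of Rpl10a turning to 0.004 with DESeq2 size factors. Rpl34, at an intermediate fold change, had 412, 430 and 421 CPM in WT 1 to 3 and 433, 455 and 469 CPM in KO 1 to 3. Its groups did not overlap, but its log2 fold change of 0.10 ± 0.06 did not pass on groups alone or with the block (adjusted p 0.353 and 0.176 in edgeR).

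The levels of the 44 genes within a library can be set against each other by subtracting the median log2 level of the 44 in that library. On this scale, 7 genes were higher in every KO library than in every WT library (Rpl7a, Rpl10, Rpl14, Rpl15, Rpl23a, Rpl27a and Rpl29), against 6.32% of all tested genes. Rpl10a and Rpl37a, 2 of the 44, were lower in every KO library, against 14.3%, and 35 overlapped. The subtraction takes out what the 44 have in common but puts it, with opposite sign, on the other genes. Without it, the shares of all tested genes were 13.8% higher and 14.7% lower. The shares on this scale are thus no like background for the 44, and no excess can be read from them. The differences were small, 0.10 for Rpl10 and Rpl7a and −0.09 and −0.10 for Rpl10a and Rpl37a on the log2 scale. These genes were named after their values were seen, and no test was made.

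The libraries of number 1 were low in nearly all of these genes. The number 1 library was the lowest of its group in WT and in KO for 42 of the 44 genes (95.5%), against 23.1% of all tested genes. WT 1 lay below the mean of WT 2 and WT 3 by a median of −0.26 on the log2 scale, and KO 1 below the mean of KO 2 and KO 3 by −0.20, while the medians over all tested genes were 0.003 and 0.006. The sum of squares of the log2 levels of each gene was split into group, number and remainder. The medians over the 44 were 18.6% for the group, 73.8% for the number and 4.04% for the remainder, compared with 31.3%, 36.004% and 17.1% over all tested genes. With no effect of either, the mean share would be 40% for the number, with 2 degrees of freedom, and 20% for the group, with 1. These are means of skewed shares, so the medians above cannot be read as over or under them. Per degree of freedom, the median was 36.9% for the number and 18.6% for the group over the 44, and 18.002% and 31.3% over all tested genes. The number exceeded the group on this scale in 28 of the 44 (63.6%), against 40.5% of all tested genes, while the group took most in Rplp1 (86.2%) and Rpl4 (75.8%).

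**Figure D2:**
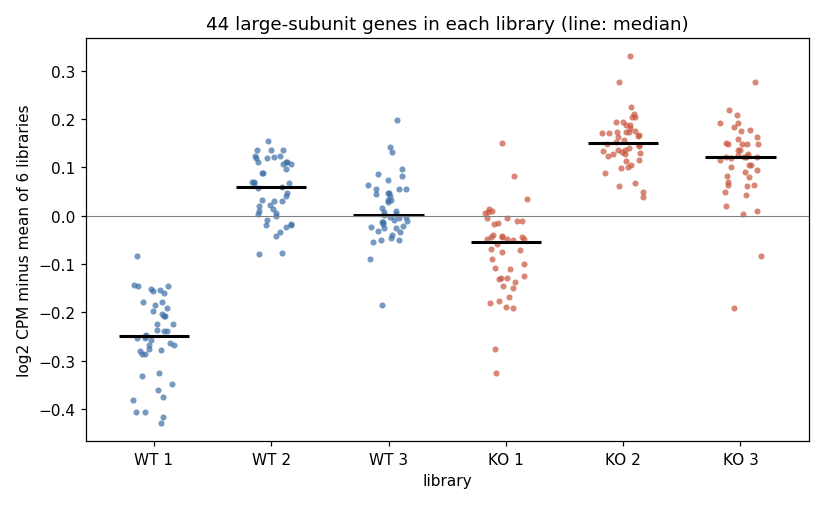
Log2 CPM of each of the 44 genes minus its mean over the 6 libraries (vertical axis), by library, with 1 point per gene and a line at the median. WT 1 lies lowest and KO 1 lies below KO 2 and KO 3.

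The size of the number 1 difference varied among the genes. It was widest in WT for Rpl3 (−0.58), Rplp0 (−0.56) and Rpl38 (−0.52), and in KO for Rplp0 (−0.57), and smallest in WT for Rpl34 (−0.05). Rpl38, known in mouse for its part in translating Hox messages, had 244, 358 and 343 CPM in WT 1 to 3 and 302, 355 and 372 CPM in KO 1 to 3. In KO, Rpl41, the shortest protein of the ribosome at 25 residues, was an exception, with KO 1 above the mean of KO 2 and KO 3 by 0.12. The small-subunit genes showed the same pattern, with medians of −0.25 in WT and −0.21 in KO and the number 1 library lowest in both groups for 30 of 32, while the 52 assembly and export factors had medians of −0.15 and −0.09. The number 1 libraries also had the highest share of reads that aligned to more than 1 place (9.90% in WT 1 and 10.2% in KO 1, against 9.14% to 9.73% in the others) and of reads outside annotated features in their group. The part of these in the results was not tested.

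Same-number comparisons gave a median log2 ratio of 0.16 for number 1, with all 44 genes higher in KO, 0.10 for number 2, with 38 higher, and 0.11 for number 3, with 38 higher. The corresponding shares of all tested genes higher in KO were 48.5%, 49.7% and 49.2%. The coefficient of variation among WT libraries ranged from 2.23% in Rpl34 to 21.6% in Rpl3. The median fold change of the 44 itself depended on these libraries: it was 0.04 without WT 1, 0.21 without KO 1 and 0.11 without both. Without WT 1, 15 of the 44 had a negative fold change, among them Rplp0, Rpl3, Rpl11 and Rpl38 at −0.05, −0.15, −0.03 and −0.03. Leaving out both number 1 libraries, 9 of the 44 were called higher (Rpl4, Rpl7a, Rpl10, Rpl14, Rpl23, Rpl23a, Rpl24, Rpl29 and Rplp1), against 10.2% of all tested genes, and without KO 1 alone 1 gene, Rpl4, against 7.52%.

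**Figure D3:**
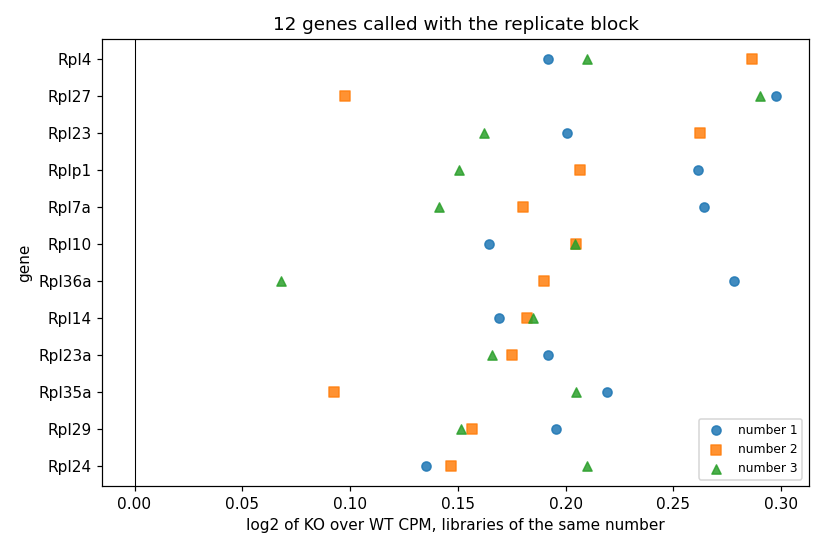
Log2 ratio of the KO library to the WT library of the same number (horizontal axis) for the 12 genes called with the replicate block, with 1 marker shape per number. All points lie above 0, and as the genes were picked by the block fit this is a description.

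Processed pseudogenes are copies of spliced messages that were reinserted into the genome. Of those that match genes of the 44, 1 for Rplp0 and 1 for Rpl3 had far more reads in the number 1 libraries than in the others. Ribosomal protein genes have more such copies than most genes, and 402 annotated pseudogenes matched the principal transcript of 43 of the 44, 252 of which were in the table, with up to 61 for Rpl21 and none for Rpl41. Gm8730, 98.7% identical to Rplp0 over 954 bases, had 7283 reads in WT 1 and 9517 in KO 1, but 3 and 1 in WT 2 and WT 3 and 5 and 3 in KO 2 and KO 3. These reads were 16.2% and 16.8% of those of Rplp0 and Gm8730 together in the number 1 libraries. Rpl3-ps1, 99.8% identical to Rpl3 over 1210 bases, had 5570, 72 and 83 reads in WT and 2986, 114 and 49 reads in KO, which were 18.5% of the combined reads in WT 1 and 8.10% in KO 1. The other 250 matching pseudogenes in the table together had 0.134% to 0.187% of the reads of the 44 genes in every library.

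**Figure D4:**
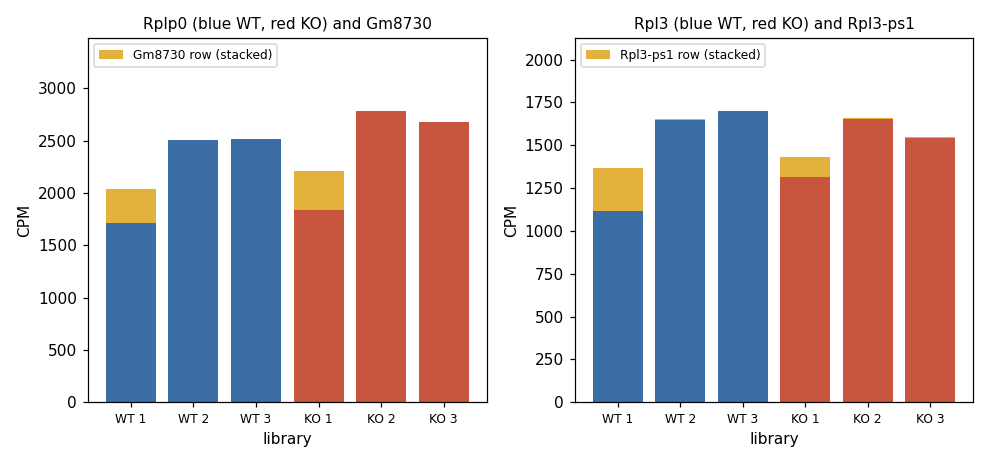
CPM in each library (vertical axis) of Rplp0 and Rpl3 (blue WT, red KO), with the pseudogenes that match them, Gm8730 and Rpl3-ps1, stacked on top in yellow. Gm8730 reached 331 CPM in WT 1 and 370 CPM in KO 1 and was under 1 CPM in the other 4 libraries.

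Adding the reads of each matching pseudogene to its gene raised the number 1 values of Rplp0 and Rpl3 and narrowed their spread, and changed the other genes little. Rplp0 then had 2040, 2505 and 2519 CPM in WT 1 to 3 and 2206, 2786 and 2676 CPM in KO 1 to 3, with a log2 fold change of 0.12 ± 0.12 in place of 0.12 ± 0.20. Rpl3 had 1370, 1651 and 1702 CPM in WT 1 to 3 and 1434, 1660 and 1548 CPM in KO 1 to 3, and its log2 fold change went from 0.02 to −0.03. The number 1 libraries were still the lowest of their groups in both genes. With these reads added, 0 of the 44 were called on groups alone by edgeR (2 had an unadjusted p under 0.05) and 12 with the block. The shares of all tested genes called higher were 2.09% and 9.63%. Reads of near-identical copies cannot be assigned with certainty from the counts.

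The promoters were compared to see which sequence features the genes share. RefSeq promoters of GRCm38.p6, from 250 bases before to 50 bases after the start, were found for 33 of the 44 genes, 38 promoters in all. The letters CTTTC, the core of a TOP tract, read on the gene's own strand within 20 bases of the start, were in 14 of the 38 (36.8%), against 5.49% of all 32851 promoters. The letters CCGGAAG, which are part of the site of ETS factors such as GABP, were found on either strand in 14 of the 38 (36.8%), against 8.86%. The letters AAGATGGC, part of the YY1 site, were on either strand in 4 promoters of 2 genes, Rpl13a and Rpl35a, with 1 site shared by the 3 overlapping promoters of Rpl35a (10.5% against 2.75%). TATAAA was on either strand in 7.90% against 13.6%. Of the genes with a promoter, 0 of 14 with CCGGAAG and 9 of 19 without it rose with the block, against 9.51% of all tested genes. The median log2 fold changes were close, 0.12 with CCGGAAG and 0.14 without it. Rpl27a, which carries CCGGAAG, missed the threshold in edgeR with the block (adjusted p 0.0541) and passed in DESeq2 with the block (0.0442). With CTTTC near the start 3 of 14 rose, and without it 6 of 19. These are counts and medians over genes of one family, given as a description. The windows printed here run from 80 bases before to 20 after the start and show 6 genes that rose with the block and 2 genes, Rpl11 and Rpl38, that did not, with CTTTC near the start and CCGGAAG in capitals:
Rpl4 (chr9:64173307-64173406, plus strand): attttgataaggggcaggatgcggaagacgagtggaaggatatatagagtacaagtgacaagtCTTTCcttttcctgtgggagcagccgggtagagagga
Rpl7a (chr2:26910727-26910826, plus strand): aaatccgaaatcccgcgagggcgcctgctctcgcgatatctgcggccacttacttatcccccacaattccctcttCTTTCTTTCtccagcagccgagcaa
Rpl10 (chrX:74270736-74270835, plus strand): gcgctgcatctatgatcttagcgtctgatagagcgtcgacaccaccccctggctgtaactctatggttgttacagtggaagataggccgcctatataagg
Rpl14 (chr9:120571437-120571536, plus strand): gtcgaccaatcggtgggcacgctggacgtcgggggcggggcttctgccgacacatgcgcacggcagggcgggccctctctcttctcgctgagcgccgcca
Rpl23 (chr11:97782420-97782519, minus strand): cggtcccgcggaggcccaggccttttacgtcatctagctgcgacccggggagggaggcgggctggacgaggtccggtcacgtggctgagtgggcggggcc
Rpl27 (chr11:101442165-101442264, plus strand): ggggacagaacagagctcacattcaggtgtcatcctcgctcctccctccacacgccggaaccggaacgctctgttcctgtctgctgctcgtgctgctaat
Rpl11 (chr4:136053374-136053473, minus strand): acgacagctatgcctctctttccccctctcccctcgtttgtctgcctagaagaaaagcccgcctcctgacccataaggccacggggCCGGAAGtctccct
Rpl38 (chr11:114668500-114668599, plus strand): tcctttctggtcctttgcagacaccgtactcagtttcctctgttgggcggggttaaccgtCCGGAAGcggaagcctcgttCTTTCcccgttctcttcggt
Of the 6 genes that rose, Rpl4 and Rpl7a carry CTTTC near the start, and Rpl10, Rpl14, Rpl23 and Rpl27 carry neither run of letters in this window. Rpl38 carries both, and Rpl11 carries CCGGAAG just after the start. The other genes that rose with the block, Rpl23a, Rpl24, Rpl29, Rpl35a, Rpl36a and Rplp1, are not printed. Rpl9, Rpl10a, Rpl37a and Rplp0 did not rise and also carry neither run of letters in this window. They are not printed either, so the printed windows do not compare genes that rose with genes that did not.

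Levels can be compared between genes only per length. By CPM per kilobase of all annotated exons, Rplp1 stood highest, at 2095 ± 97.0 in WT and 2416 ± 38.6 in KO (SD, n = 3). Rplp0 followed at 1353 ± 280 and 1466 ± 313, and Rpl23a at 1157 ± 121 and 1307 ± 127, and the ranges of these 2 were within each other's spread. Rpl35a was lowest at 144 ± 22.8 and 162 ± 20.1, below Rpl34 at 159 ± 3.55 and 171 ± 6.88 and Rpl30 at 194 ± 18.8 and 191 ± 23.5, of which Rpl35a and Rpl34 did not differ beyond their spread. The order was nearly the same in both groups, with a correlation of the log2 means across the 44 genes of 0.996, which share libraries and lengths. It depends on the length used: per kilobase of the principal transcript, Rplp1 remained first, but Rpl35a ranked 19 of 44 in WT and Rpl18 was last.

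**Figure D5:**
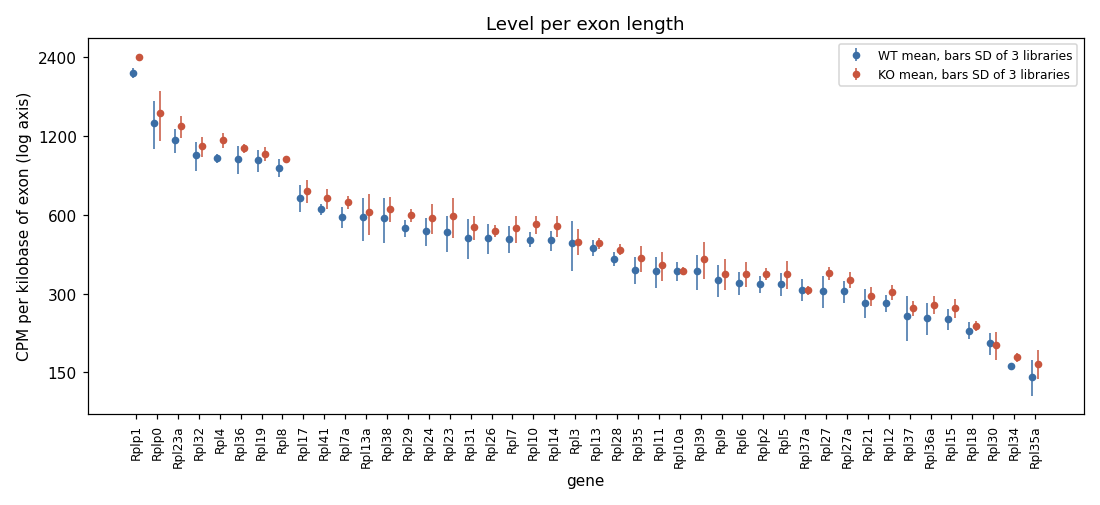
Level of each of the 44 genes in CPM per kilobase of annotated exon (logarithmic vertical axis) in WT and KO, ordered by the WT mean, with bars for SD over 3 libraries. Rplp1 is highest and Rpl35a lowest in both groups.

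Genes that work with the 44 showed fold changes of similar size. Of 32 small-subunit protein genes, 30 had a positive fold change, with a median of 0.11, and edgeR called 0 on groups alone (2 had an unadjusted p under 0.05). With the block 5 rose and 0 fell, Rps2, Rps12, Rps25, Rps26 and Rps27a. Of 52 assembly and export factors of the 60S subunit, 44 had a positive fold change, with a median of 0.14; edgeR called 0 on groups alone (10 had an unadjusted p under 0.05), 1 passed in DESeq2, and 11 rose and 0 fell with the block. Among these 11, Npm1, a nucleolar chaperone of ribosome assembly, was at 1629 ± 194 CPM in WT against 2136 ± 327 CPM in KO (SD over 3 libraries), with a log2 fold change of 0.39 ± 0.13 and adjusted p-values of 0.119 on groups alone and 0.000786 with the block in edgeR. Nmd3, the adapter that exports the large subunit from the nucleus, had a log2 fold change of 0.29 ± 0.11 and a block-adjusted p of 0.00998. Rpl22, the paralog of the deleted gene, had a log2 fold change of 0.18 ± 0.08, and passed with the block (adjusted p 0.0329) but not on groups alone (0.214). Of all tested genes, 48.8% had a positive fold change and 23.5% an unadjusted p under 0.05 in edgeR on groups alone. DESeq2 called 8.91% of them, and with the block in edgeR 9.51% rose and 10% fell. Whether the 44 genes differ from these lists was not tested.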

How the data were processed

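RNA sequencing libraries of sorted DN3 thymocytes, 3 WT and 3 KO, were grouped by the sample labels. The deposited table of the authors holds raw counts of reads for each gene symbol. TopHat2, HTSeq and the GRCm38 assembly are named, per the submitters' processing notes, and for versions, annotation and strand setting the notes, labels and header give nothing. The Ctrl columns were taken as the WT samples of the same number, which left 0 columns without a sample. Library sizes and tests leave out the 5 summary rows of the counting tool. Reads outside annotated features made up 50.4% to 51.9% of all reads listed, and 37.7% to 39.7% were counted to genes.

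The members and gene lists were chosen with earlier results of these data known. Counts were analysed with edgeR 4.0.16 in R 4.3.3 (filterByExpr with a minimum count of 10 and minimum total of 15, TMM scaling, glmQLFit with robust fitting, two-sided quasi-likelihood F test, Benjamini-Hochberg adjustment over 13729 genes at 0.05). CPM are TMM-normalised, and standard errors are those implied by the F statistic. DESeq2 1.42.0 and limma 3.58.1 (voom) served as alternatives, as did other scalings and filters, each library left out and the replicate block. The reads carry no molecular identifiers and so are not counts of independent molecules.

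The titles number both groups 1 to 3. Deviations from the group means correlated across tested genes between WT 1 and KO 1 at 0.58, WT 2 and KO 2 at 0.17 and WT 3 and KO 3 at 0.34, all over the threshold of 0.1 at which numbers were treated as pairs. WT 2 correlated better with KO 3, at 0.29, and WT 3 with KO 2 reached 0.22, so unlike numbers passed the threshold too. As deviations within a group sum to 0, a match of number 1 alone raises the correlations among numbers 2 and 3. The threshold thus could not decide how numbers 2 and 3 pair. The pairing comes from the data and rests mainly on number 1, and no litter, batch or day is stated. No 2 libraries of the same group agreed within sampling noise.

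Genes named with values are the 6 with the smallest p, those called by any of edgeR, DESeq2 or the block, those with negative fold changes, the 3 highest and 3 lowest per length, the 3 with the widest spread within a group, Rpl5, Rpl11 and the stalk genes. Gene models are from GENCODE M21 (GRCm38). Pseudogenes were matched to principal transcripts with blastn 2.17.0 at 95% identity or more over at least 100 bases.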

Additional observations from a re-analysis of the deposited data

How the results depend on the processing

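Of the 44 large-subunit genes, 0 were called lower under every alternative, and 0 higher with DESeq2 size factors, library size alone, TMM factors without ribosomal protein genes, no count filter, a filter of 5 CPM, limma-voom, robust fitting off, earlier edgeR defaults or pseudogene reads added. The count was 2 with DESeq2, 12 with the replicate block, 13 with DESeq2 and the block, 9 without both number 1 libraries, 12 with pseudogene reads added and the block, and 0 to 1 with 1 library left out. Genes called among all tested, 626 on groups alone, numbered 1222 with DESeq2, 2684 with the block, 1707 with DESeq2 and the block, 2798 without both number 1 libraries, 2710 with pseudogene reads and the block, and 102 to 2043 with 1 library left out. The median fold change of the 44 ranged from 0.044 to 0.207 with 29 to 44 of them positive, and the ratio of sums from 1.02 to 1.14 with 1 library left out. Over 23 named genes and 20 settings, 385 values kept their direction and side of the threshold, 48 passed it and 27 turned in sign, with adjusted p-values of 0.424 or more. Rpl10a turned to 0.0041 (DESeq2 size factors), 0.0046 (TMM without ribosomal genes), 0.0081 (no filter), 0.0041 (DESeq2), 0.00035 (voom), 0.0011 (block), 0.0075 (DESeq2 block) and 0.0010 (pseudogene reads and block). Rpl3 turned to −0.013 (library size alone), −0.064 (without both number 1 libraries), −0.025 (pseudogene reads) and −0.022 (with the block too). With 1 library left out, Rpl10a ranged from −0.070 to 0.042, Rpl30 from −0.10 to 0.072, Rpl37a from −0.089 to 0.035, Rpl3 from −0.15 to 0.13, Rplp0 from −0.045 to 0.29, Rpl38 from −0.031 to 0.22 and Rpl11 from −0.033 to 0.18. The cause was not tested. Added after seeing the data were the earlier edgeR defaults, the added pseudogene reads and the ratio of sums without both number 1 libraries, 1.07. With 3 libraries a group, the median SE of the 44, 0.10 on groups alone and 0.050 with the block, limits which differences of this size pass.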

Other observations

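Introns of ribosomal protein genes host small nucleolar RNAs (snoRNAs), which guide the modification of rRNA. By the GENCODE annotation, 19 of the 44 genes hold 38 snoRNA genes, 5 of them in Rpl4. Of the 38, 19 were in the count table, with 1385 reads in all libraries together and 9 listed at 0, so their levels were not compared. The median log2 fold change of the host gene was 0.12 for the 19 genes with a snoRNA and 0.13 for the 25 without one. With the block 5 and 7 of them rose, against 9.51% of all tested genes.

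Across the 44 genes, the log2 fold change showed next to no relation to the GC content of the principal transcript (Pearson's r −0.03), its length (−0.08), the number of residues (−0.02) or the number of matching pseudogenes (0.04). These are descriptions across genes of the same libraries. The 44 genes lie on 17 chromosomes, with 3 of them on X.

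Several of the 44 overlap another gene on the opposite strand, and without a stated strand setting the reads of both cannot be told apart. Tlcd1, which overlaps Rpl23a, had 114704 reads in all libraries against 134415 for Rpl23a, and Wdr38, which overlaps Rpl35, had 46863 against 62185.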
